A study of Mus musculus with 8 samples.

Results

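The 56 genes described here encode the machinery of S phase and mitosis. They were taken from a fixed list, 18 acting in S phase and 38 in G2 and mitosis (G2/M), and were measured by array in primary mouse hepatocytes, liver cells kept in short culture, of p16 knockout (p16-/-) and wild type (p16+/+) genotype. Of the 56, 54 had an array row that names a single gene and 39 were bright enough to be tested, among 22180 genes with such a row and 15380 tested. Ccnb1 and Ccnf were not analysed here. p16, a product of Cdkn2a, inhibits the kinases CDK4 and CDK6. Both groups were treated alike: overnight plating in Williams E medium with 10% serum, 100 nM insulin and 25 nM dexamethasone, then, from 16 h, a low-glucose medium (1 mM, with 0.1% albumin and antibiotics) over 8 h. Each genotype had 4 arrays, called biological replicates. Separate animals are not named for them, and the p-values here cover only variation among these arrays. The sex, age and strain of the mice and the extent of the deletion were not used here. The comparison asks how genes of DNA synthesis and mitosis differ by p16 genotype under that culture.

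Active CDK4 and CDK6 phosphorylate the retinoblastoma proteins and free E2F factors, which transcribe the genes of DNA synthesis as a cell passes from G1 into S phase. The mitotic genes follow later. In resting cells they are held down by the DREAM complex, which binds a promoter element called the cell cycle genes homology region (CHR), and in G2 they are switched on through the same element by B-MYB and FOXM1. Adult hepatocytes are almost all quiescent, though they can re-enter the cycle when the liver is injured.

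Many promoters of the list carry sequence marks of these phases. A RefSeq table (GRCm38.p6) held windows from 250 bases before to 50 after a transcription start for 46 of the 56 members, and each window was searched on both strands for an E2F site (TTTCCCGC, TTTGGCGC, TTTCGCGC or TTTGCCGC), a CHR (TTTGAA or TTCGAA) and a CCAAT box (CCAAT, the site of the factor NF-Y). An E2F site was found for 9 of 15 S-phase members (60%), 1 of 31 G2/M members (3.23%) and 2.60% of the 27025 genes in the table. The 9 with a site were Brca2, Dnmt1, Ezh2, Hells, Lig1, Orc1, Pola1, Pold1 and Uhrf1, and the G2/M gene was Cdk1. A CHR was found for 24 of 31 G2/M members (77.4%), 2 of 15 S-phase members (13.3%) and 21.7% of all genes. A CCAAT box was found for 71.0% of G2/M members, 60% of S-phase members and 41.1% of all genes, and 20 of the G2/M members had both a CHR and a CCAAT box. A gene counted when any of its windows held a match. By window, an E2F site was found in 9 of 21 for S-phase members and 1 of 33 for G2/M members. In broader lists of other genes of the same phases the E2F contrast was small, with a site for 8 of 39 S-phase and 9 of 53 mitotic genes. The CHR contrast remained there, with 9 of 39 and 36 of 53. No E2F match overlapped a CHR match in a member's window. A match is a description of letters and not evidence of a bound factor.

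**Figure D1:**
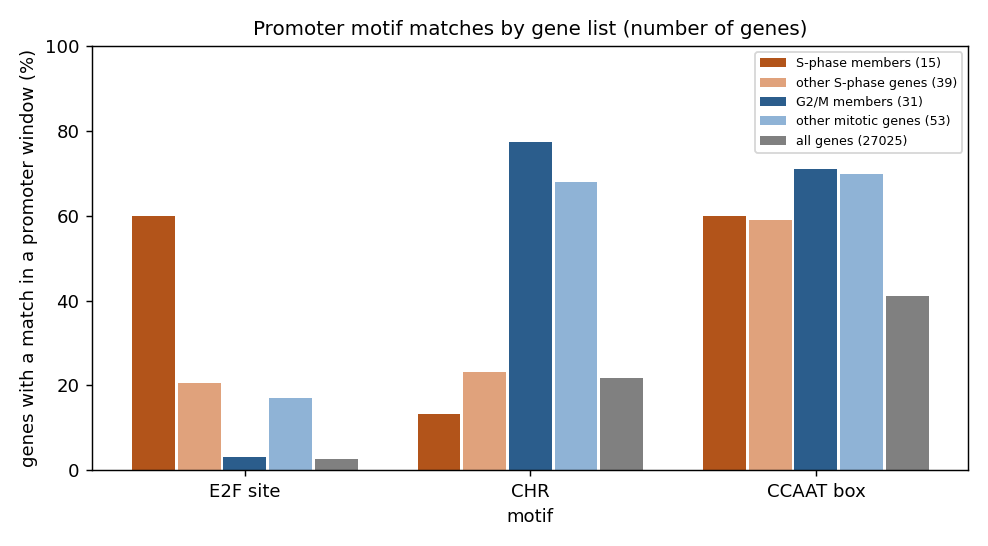
Share of genes (%) with at least 1 match to each motif in a 300-base promoter window, for the S-phase and G2/M members, for other genes of the same phases and for all genes in the table (number of genes in brackets). E2F sites stand out for S-phase members (60%) and the CHR for G2/M members (77.4%). For the other genes of the same phases the E2F shares lie close together.

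The stretches just upstream of the start are shown for 8 members, chosen among those with a match to set S-phase promoters beside mitotic ones. They run 5′ to 3′ on the gene's strand and end at the base before the start, in GRCm38.p6. Capitals mark the E2F site in the 3 S-phase genes and the CHR in the 5 mitotic genes, on either strand.
Pola1, chrX:93632156-93632305, minus strand: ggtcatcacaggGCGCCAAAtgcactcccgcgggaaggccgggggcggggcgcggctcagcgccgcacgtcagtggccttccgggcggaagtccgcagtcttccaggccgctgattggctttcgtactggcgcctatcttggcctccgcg
Hells, chr19:38930880-38930989, plus strand: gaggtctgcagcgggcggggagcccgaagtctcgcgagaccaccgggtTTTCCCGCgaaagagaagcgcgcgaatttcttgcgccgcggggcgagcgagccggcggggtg
Orc1, chr4:108579344-108579453, plus strand: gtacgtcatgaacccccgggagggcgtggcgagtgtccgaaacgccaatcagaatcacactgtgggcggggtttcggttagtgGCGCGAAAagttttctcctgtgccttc
Ccnb2, chr9:70421555-70421734, minus strand: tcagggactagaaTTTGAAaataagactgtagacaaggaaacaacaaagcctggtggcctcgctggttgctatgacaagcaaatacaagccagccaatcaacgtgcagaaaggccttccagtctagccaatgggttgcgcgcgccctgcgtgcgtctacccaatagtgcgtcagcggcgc
Cdk1, chr10:69352913-69353022, minus strand: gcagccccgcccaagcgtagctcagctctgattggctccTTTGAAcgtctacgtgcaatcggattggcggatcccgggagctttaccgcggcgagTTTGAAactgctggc
Cdc20, chr4:118437344-118437453, minus strand: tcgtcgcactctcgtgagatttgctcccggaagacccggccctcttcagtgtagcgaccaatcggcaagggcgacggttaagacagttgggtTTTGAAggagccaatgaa
Mki67, chr7:135716380-135716509, minus strand: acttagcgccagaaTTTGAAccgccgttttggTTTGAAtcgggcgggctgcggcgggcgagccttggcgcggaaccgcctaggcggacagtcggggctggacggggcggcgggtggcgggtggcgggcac
Top2a, chr11:99024190-99024379, minus strand: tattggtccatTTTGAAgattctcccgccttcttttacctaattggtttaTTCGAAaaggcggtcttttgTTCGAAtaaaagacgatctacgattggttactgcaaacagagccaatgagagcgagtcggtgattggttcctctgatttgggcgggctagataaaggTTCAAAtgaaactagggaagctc
The Pola1 and Hells sites begin 138 and 62 bases before the start. Top2a holds 4 CHR matches upstream and Cdk1 and Mki67 hold 2 each, while Ccnb2 has 1 here and another after the start. Pole, Gins1, Gins2, Foxm1, Ccna2, Aurkb, Cdc25c, Tpx2, Stmn1 and Kif20a had no window in the table.

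The arrays were closely alike, with correlations of 0.985 to 0.993 within a genotype and 0.973 to 0.983 between them over all genes tested. Knockout replicate 4 stood apart on the next-to-leading principal component (-25.2, others -8.91 to 14.6). For some members, though not for all that move, the change without it is also given. Cdkn2a itself read 4.53 ± 0.28 on the wild type and 4.53 ± 0.31 on the knockout arrays (SD, n = 4). It is not known here whether its probes lie in the deleted part, so this row checks nothing about the labels. Mature hepatocyte genes were higher on the knockout arrays, with 20 of 29 tested markers called higher and none lower and array medians of 0.11 to 0.47 against -0.52 to -0.28 in wild type (log2, relative to each gene's midpoint between the groups). Of 28 endothelial markers 23 were lower and 1 was higher (array medians -0.54 to -0.33 against 0.39 to 0.55), and of 20 tested Kupffer cell and macrophage markers 14 were lower and 1 higher (-0.36 to -0.23 against 0.27 to 0.51). Of 21 stellate markers 5 were lower and 1 higher (-0.27 to 0.01 against 0.02 to 0.27), and none of 6 cholangiocyte or 8 lymphocyte markers tested was called. Leading examples were Mat1a (2.51), Arg1 (2.69), Cdh5 (-2.03), Eng (-1.56), Ctss (-1.37), Fcer1g (-0.91), Dcn (-2.13) and Rgs5 (-1.65), as log2 changes. In such cultures fewer cells of a type and less RNA per cell cannot be told apart, and the part of these shifts in the changes described next was not tested.

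The level of the list on the arrays was split by phase. To place a row among unexpressed genes, the 1405 olfactory, vomeronasal and trace-amine receptor genes on the array were used as a reference, since hepatocytes are not known to express most of them; their median row mean was 1.95 and their 95th percentile 3.86 (log2 values after RMA, the array normalization the authors used). Of 18 S-phase members 16 lay above that 95th percentile, against 15 of 36 G2/M members. Rows have different probes, so this bound is coarse and the levels of individual rows are not ranked against each other. The classical mark of cycling cells, Mki67, lay below the bound, with 3.13 ± 0.21 on wild type arrays and 3.21 ± 0.16 on knockout arrays (SD, n = 4). So did Top2a, the topoisomerase that untangles chromosomes (2.30 ± 0.17 and 2.66 ± 0.20), Birc5, which encodes survivin of the chromosomal passenger complex (2.83 ± 0.28 and 3.01 ± 0.24), the checkpoint kinase gene Bub1 (1.70 ± 0.11 and 1.87 ± 0.15) and Ccna2, which encodes cyclin A2 (2.86 ± 0.14 and 2.88 ± 0.07). In each of these 5 genes the values of both genotypes overlapped.

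Dim rows were also coarser. Identical values to 6 decimals on at least a pair of arrays occurred in 10 of 23 members at or below the receptor bound (43.5%) and in 6 of 31 above it (19.4%), beside 27.1% and 14.1% of all genes split the same way. Aurkb, which encodes the kinase of the passenger complex, is an example above the bound, with one and the same value, 4.28, on knockout replicates 2 and 3. The 15 members whose mean over the 8 arrays lay below 3.32, the 40th percentile of all rows, were left out of the test. All 15 belong to G2/M; Orc1 (mean 3.33) lay just inside this limit and Cenpe (3.32) and Foxm1 (3.31) just outside. They are Ccna2, Cdc25c, Foxm1, Bub1, Ttk, Birc5, Cenpe, Cenpf, Ndc80, Nuf2, Kif11, Kif23, Anln, Mki67 and Top2a, with differences of -0.06 to 0.36 and a median of 0.08. When every row was tested without a filter none of them passed, with adjusted p-values of 0.139 to 0.961 (limma, Benjamini-Hochberg adjustment). Of the 8 tested members at or below the receptor bound none passed either. Of the 15 members left out, Top2a had the smallest adjusted p without a filter (0.139 by limma). It read 2.08, 2.44, 2.26 and 2.44 in wild type and 2.87, 2.61, 2.75 and 2.41 in knockout replicates 1 to 4.

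**Figure D2:**
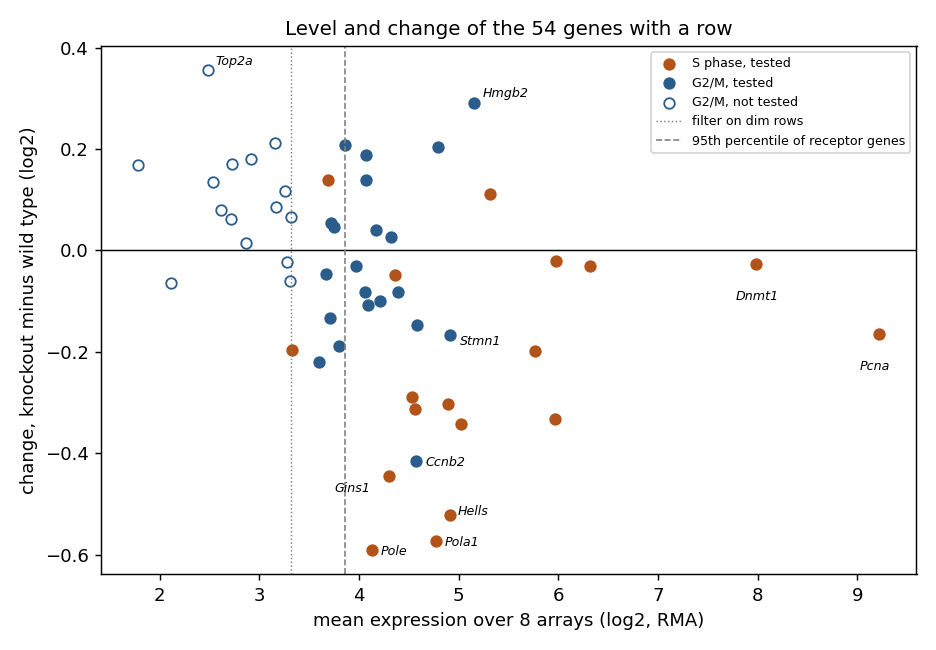
Mean expression over the 8 arrays (x axis, log2) against the change, knockout minus wild type (y axis, log2), for the 54 members with a row. Most S-phase genes lie right of the receptor bound at 3.86 and below 0, while G2/M genes gather around 0 near or left of it; open circles mark the 15 genes not tested.

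Of the 39 members tested, 3 fell and none rose in the knockout (limma, adjusted p under 0.05 over all 15380 genes). The 3 were the DNA synthesis genes Pole, Pola1 and Gins1. Over all genes 13.8% were called, 7.02% higher and 6.76% lower. The members' share of 7.69%, all of it falls, is below the combined 13.8% and near the 6.76% for falls. Groups did not overlap for 5 of the 39 (12.8%), against 20.2% of all genes tested; all 5 were lower in the knockout, as were 11.1% of all genes. At an unadjusted p under 0.05 there were 8 members, and 26.9% of all genes. No member's 95% interval reached a 2-fold change in either direction, which also held for 96.0% of all genes. By phase, the 3 calls were among the 18 S-phase members (16.7%), and none was among the 21 G2/M members tested, where 1 had an unadjusted p under 0.05.

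**Figure D3:**
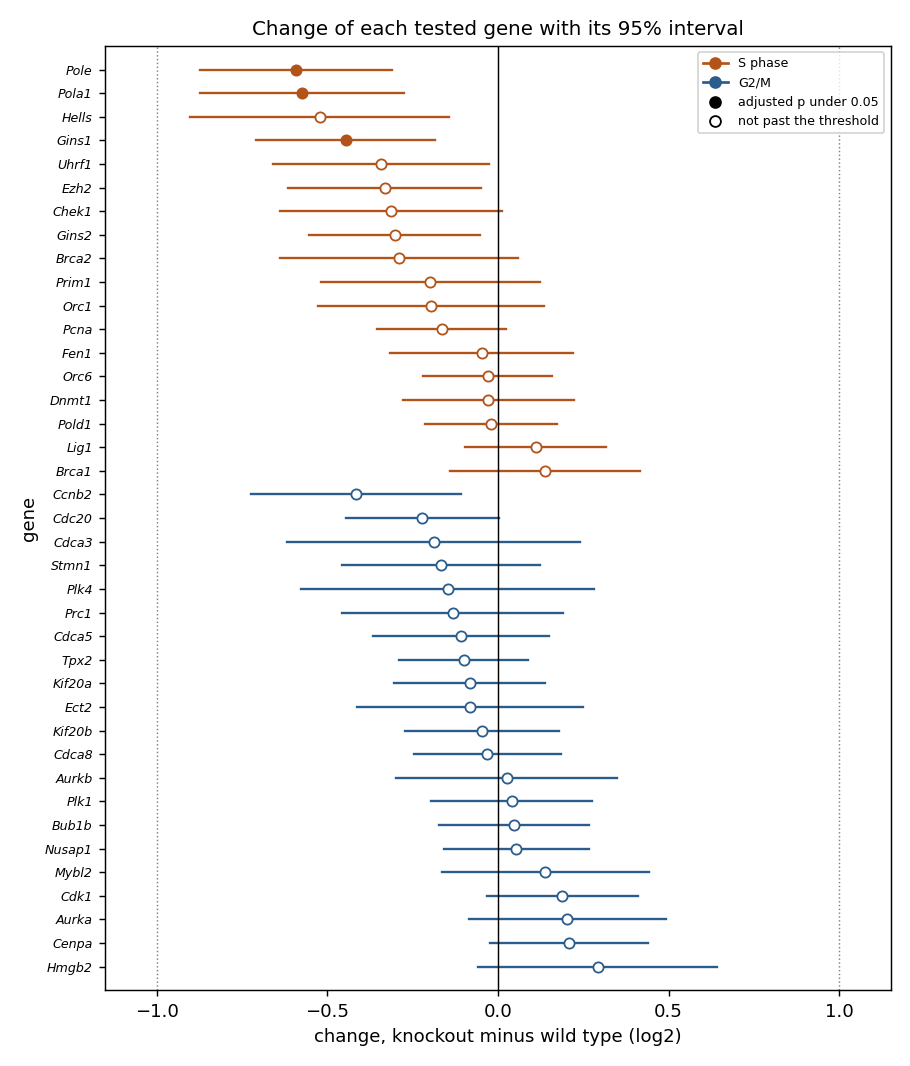
Change of each of the 39 tested members (x axis, log2, knockout minus wild type; points with 95% intervals), S-phase genes above and G2/M genes below, filled where the adjusted p is under 0.05. Of 18 S-phase points 16 lie left of 0, against 12 of 21 G2/M points; dotted lines mark 1 log2 unit.

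The 3 genes that fell all act at the replication fork, though the 11 fork and origin genes together had a median change of -0.20. Pole encodes the catalytic subunit of DNA polymerase epsilon, which copies the leading strand. It read 4.74, 4.31, 4.47 and 4.21 in wild type replicates 1 to 4 and 3.96, 3.92, 3.88 and 3.61 in the knockout. Every knockout value was below every wild type value, and the fall was 1.51-fold (log2 change -0.59, SE 0.13, adjusted p = 0.0105 by limma). The call held when each array was left out in turn (adjusted p of 0.00923 to 0.0308). The array has another Pole row, below the filter, with group means of 3.15 ± 0.15 for wild type and 3.20 ± 0.12 for knockout (SD, n = 4), a difference of 0.05; with the mean of both rows the change was -0.27 (adjusted p = 0.0413 by limma).

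Pola1 encodes the catalytic subunit of DNA polymerase alpha, which starts each new strand together with primase. Its wild type values were 5.31, 4.91, 5.27 and 4.76 and its knockout values 4.59, 4.27, 4.62 and 4.48. The groups were separate, with a 1.49-fold fall (log2 change -0.57, SE 0.14, adjusted p = 0.0171 by limma). The adjusted p rose to 0.0558 without wild type replicate 1, 0.0514 without wild type replicate 3 and 0.0549 without knockout replicate 2. This is the only one of the 3 with a promoter window in the table, and the window holds an E2F site.

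Gins1 encodes a subunit of the GINS complex, part of the helicase that opens DNA at the fork. It read 4.63, 4.34, 4.81 and 4.32 in wild type and 4.14, 4.12, 3.96 and 4.10 in knockout cells, again without overlap. It fell 1.36-fold (log2 change -0.45, SE 0.12, adjusted p = 0.0294 by limma). The call ended without wild type replicate 1 (0.0872) or 3 (0.0728), without knockout replicate 1 (0.0559), 2 (0.0629) or 3 (0.0744), with no filter (0.0547) and with median centring of the arrays (0.0567). Its partner Gins2 read 5.07, 5.08, 5.06 and 4.97 against 4.87, 4.87, 4.81 and 4.41. The Gins2 groups did not overlap, but the change of -0.30 (SE 0.11) missed the threshold (adjusted p = 0.109 by limma). Its lowest value was that of knockout replicate 4, without which the change was -0.19.

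The other fork and origin genes had smaller differences, and none passed. Pcna, which encodes the sliding clamp of the polymerases, read 9.34, 9.33, 9.31 and 9.24 in wild type and 9.19, 9.10, 9.02 and 9.26 in knockout cells (change -0.17, 95% interval -0.35 to 0.02). Knockout replicate 4 was the only knockout array inside the wild type range. Pold1, the catalytic subunit of polymerase delta on the lagging strand, read 6.04, 5.93, 6.03 and 5.96 and then 6.10, 5.91, 6.02 and 5.85 (change -0.02, interval -0.21 to 0.17). Pold1 thus overlapped fully on arrays on which the catalytic genes of polymerases alpha and epsilon did not. Orc6, a subunit of the origin recognition complex, read 6.28, 6.43, 6.34 and 6.30 against 6.34, 6.19, 6.40 and 6.30 (change -0.03, interval -0.22 to 0.16). The primase gene Prim1 had a change of -0.20, the flap nuclease gene Fen1 of -0.05, the origin recognition gene Orc1 of -0.20 and the ligase gene Lig1 of 0.11, with adjusted p-values of 0.437, 0.851, 0.456 and 0.509 by limma. Without knockout replicate 4 the Prim1 change was -0.0468 and the Orc1 change -0.33. The array has another Fen1 row, with a mean of 4.21 over the 8 arrays and a difference of 0.07. The sign of the Fen1 change therefore depends on the row.

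The genes that copy chromatin marks behind the fork were also on the low side, with no call. Hells, a chromatin remodeller needed for DNA methylation, lay closest to the threshold among the members not called. It read 5.19, 4.86, 5.44 and 5.21 in wild type and 4.18, 4.90, 4.93 and 4.61 in knockout cells, a change of -0.52 (SE 0.17, adjusted p = 0.0698 by limma), with wild type replicate 2 inside the knockout range. Over the alternatives its adjusted p ran from 0.0438 to 0.171. Ezh2, the methyltransferase of Polycomb repressive complex 2, read 6.27, 6.14, 6.22 and 5.88 against 5.87, 5.76, 6.05 and 5.51 (change -0.33, SE 0.13, adjusted p = 0.122). Uhrf1, which brings DNMT1 to newly copied DNA, read 5.15, 5.46, 4.95 and 5.23 against 4.63, 4.93, 4.68 and 5.18 (change -0.34, SE 0.14, adjusted p = 0.150), and without knockout replicate 4 its adjusted p was 0.0486 by limma.

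Dnmt1, the maintenance DNA methyltransferase, differed little, with 8.03, 7.83, 8.15 and 7.98 in wild type and 8.03, 8.03, 8.13 and 7.70 in knockout cells (change -0.03, interval -0.28 to 0.22). Among the checkpoint and repair genes, the kinase gene Chek1 had a change of -0.31 (SE 0.15) and the recombination gene Brca2 of -0.29 (SE 0.16). Brca1, whose row lay below the receptor bound, had a change of 0.14 (SE 0.13). None of these passed, with adjusted p-values of 0.205, 0.280 and 0.546 by limma. Without knockout replicate 4 the change of Chek1 was -0.17, that of Brca2 -0.22 and that of Brca1 0.26.

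**Figure D4:**
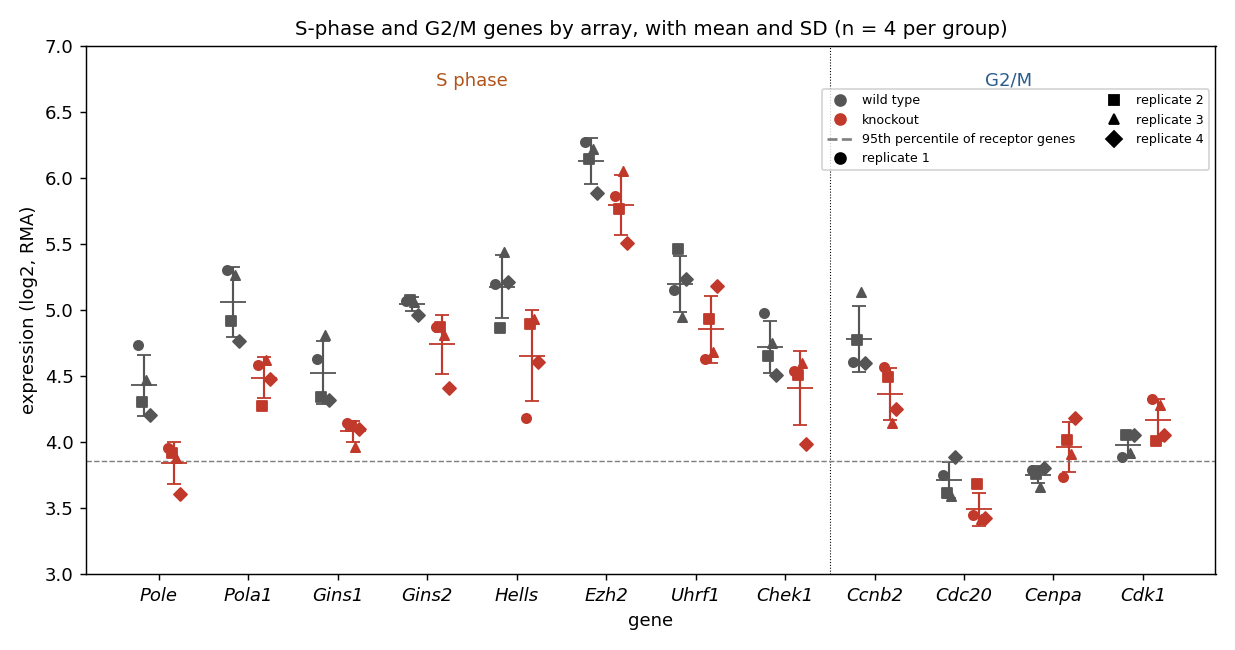
Expression (y axis, log2) on each of the 8 arrays for 12 members, S-phase genes left and G2/M genes right of the dotted line; bars give the mean and SD of 4 arrays. Pole, Pola1, Gins1, Gins2 and Ccnb2 are the members whose groups do not overlap, and knockout replicate 4 (diamond) is the lowest of the 8 arrays for Pole, Gins2, Ezh2 and Chek1.

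Over the 18 S-phase members the median change was -0.24, beside -0.02 over all genes tested, and 16 of 18 (88.9%) lay below 0, beside 54.8% of all genes. The size of the shift was uneven across arrays. Relative to each gene's midpoint between the groups, the S-phase median was 0.13, 0.06, 0.17 and 0.03 on wild type replicates 1 to 4 and -0.07, -0.08, 0.03 and -0.29 on the knockout replicates. The groups therefore touched, with knockout replicate 3 beside wild type replicate 4. Knockout replicate 4 held the lowest of the 8 values for 9 of 18 S-phase members, and for 26.1% of all genes. Without that array the S-phase median change was -0.20 and the called members were Pole, Pola1, Gins1 and Uhrf1.

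The 21 tested G2/M members showed no such shift. Their median change was -0.05, with 12 below 0, and array medians of -0.02 to 0.06 in wild type and -0.05 to 0.06 in knockout cells overlapped throughout. With the dim rows included the median was 0.04, so its sign depends on the filter. Among members above the receptor bound the contrast between the phases was the same in kind: the median change was -0.30 for 16 S-phase genes and -0.03 for 15 G2/M genes. The median of S-phase minus G2/M genes was higher than 0 on wild type replicates 1, 2 and 3 (0.08, 0.08 and 0.15) and knockout replicate 3 (0.08). It was below 0 on wild type replicate 4 (-0.02) and on knockout replicates 1, 2 and 4 (-0.02, -0.14 and -0.31). These medians are descriptions of a list chosen with results known, and the difference between the phases was not tested.

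**Figure D5:**
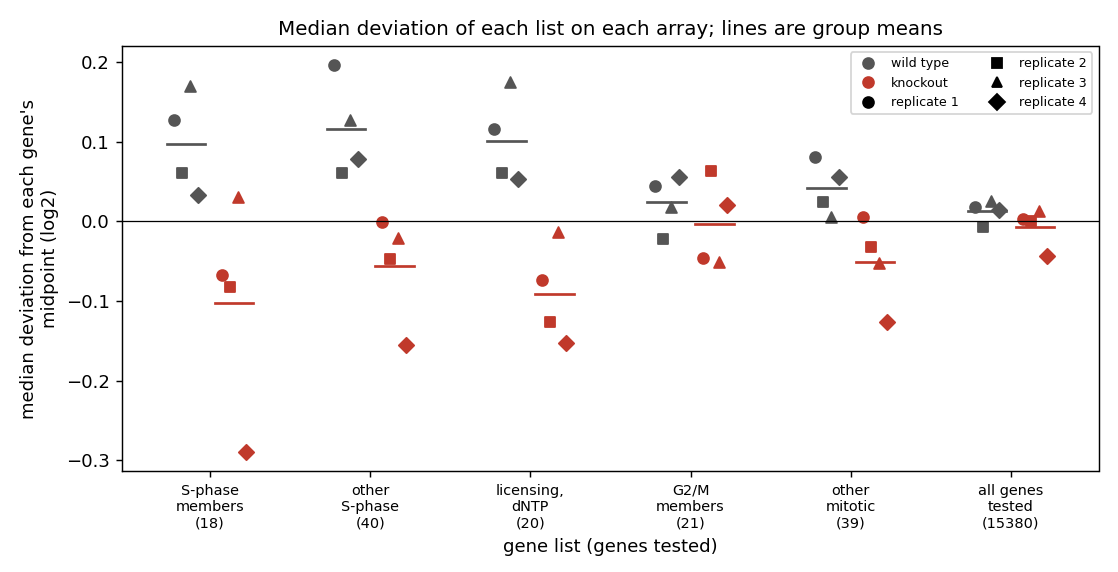
Median deviation from each gene's midpoint between the groups (y axis, log2) on each array, for the S-phase and G2/M members, other genes of both phases, replication licensing and dNTP genes, and all genes tested (number tested in brackets; lines are group means). S-phase medians are above 0 on every wild type array and reach -0.29 on knockout replicate 4, whereas G2/M members overlap between genotypes. Medians of the other mitotic genes do not overlap, with 0.0059 to 0.0801 in wild type and -0.1269 to 0.0048 in knockout.

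Cyclin and kinase genes of the G2/M part gave 1 difference near the threshold. Ccnb2, which encodes the mitotic cyclin B2, read 4.61, 4.77, 5.14 and 4.60 in wild type and 4.57, 4.49, 4.15 and 4.25 in knockout cells. The groups did not overlap, though their nearest values were 4.60 and 4.57, and the change of -0.42 (SE 0.14) missed the threshold (adjusted p = 0.0749 by limma; 0.0464 to 0.171 over the alternatives). Cdk1, its partner kinase, went the other way, with 3.89, 4.05, 3.92 and 4.05 against 4.32, 4.01, 4.28 and 4.05 (change 0.19, SE 0.10, adjusted p = 0.266). Plk1, the kinase of mitotic entry, read 4.15 ± 0.13 and 4.19 ± 0.16 (SD, n = 4), and Mybl2, which encodes B-MYB, 4.00 ± 0.24 and 4.14 ± 0.20. Plk4, the kinase of centriole duplication, read 4.44, 4.56, 4.72 and 4.92 against 4.73, 4.73, 4.74 and 3.85, so that its mean change of -0.15 rests on knockout replicate 4; without it the change was 0.07.

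The 7 tested spindle checkpoint and passenger genes overlapped between the genotypes. Cdc20, the activator of the anaphase-promoting complex, read 3.75, 3.61, 3.60 and 3.89 in wild type and 3.45, 3.68, 3.42 and 3.42 in knockout cells (change -0.22, SE 0.10, adjusted p = 0.192 by limma). Aurka, the spindle pole kinase, read 4.87, 4.30, 4.76 and 4.85 against 5.06, 4.90, 4.79 and 4.84 (change 0.20, SE 0.13, adjusted p = 0.369), and without wild type replicate 2, its lowest array, the change was 0.07. The 5 other tested genes of this role, Bub1b, Aurkb, Cdca8, Cdca3 and Cdca5, had changes between -0.19 and 0.05. Of the kinetochore genes only Cenpa, the histone H3 variant of centromeres, was bright enough to test. It read 3.79, 3.76, 3.66 and 3.81 against 3.74, 4.01, 3.91 and 4.19 (change 0.21, SE 0.11, adjusted p = 0.239 by limma; 0.13 without knockout replicate 4).

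Genes of the spindle and of cytokinesis varied as little. Stmn1, which encodes the microtubule destabiliser stathmin, read 5.06, 4.63, 5.14 and 5.16 in wild type and 4.87, 4.92, 4.59 and 4.93 in knockout cells (change -0.17, interval -0.46 to 0.12). The changes of Kif20a, Kif20b, Nusap1, Tpx2, Prc1 and Ect2, which encode motors, microtubule binders and the regulator of the cleavage furrow, lay between -0.13 and 0.05. Hmgb2, a chromatin protein abundant in dividing cells, had the largest upward difference of the tested members, with 5.40, 4.80, 5.17 and 4.68 against 5.53, 5.20, 5.11 and 5.39 (change 0.29, SE 0.16, adjusted p = 0.279 by limma). Its groups overlapped, its interval reached from -0.06 to 0.64, and without wild type replicate 4 the change was 0.18.

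Other genes of the same phases, from broader lists, had medians on the low side for both phases, and the difference between the lists was not tested. Of 40 other S-phase genes tested, 5 fell and 1 rose, with a median change of -0.19 and 29 below 0. The falls included the histone chaperone gene Nasp (-0.47, SE 0.10, adjusted p = 0.00964 by limma) and the fork protein gene Wdhd1 (-0.54, SE 0.12, adjusted p = 0.0107), and the rise was that of Chaf1b, a subunit of the assembly factor that places histones behind the fork (0.68, SE 0.17, adjusted p = 0.0217). Of 39 other mitotic genes tested, 5 fell and none rose, with a median of -0.15 and 28 below 0. Both lists' shares of genes called in either direction are near the 13.8% of all genes. Falls alone, 5 of 40 and 5 of 39, are larger shares than the 6.76% of all genes called lower, and this difference was not tested. The leading falls were Cdca7 (-0.95, SE 0.15, adjusted p = 0.00155), the lamin B1 gene Lmnb1 (-0.74, SE 0.14, adjusted p = 0.00429) and Trip13 (-0.67, SE 0.14, adjusted p = 0.00871), all by limma. Cdca7 is a chromatin factor that works with HELLS, and lamin B1 is a structural protein of every nucleus. Neither is confined to mitosis in what it does, but this is not said of Trip13 or the other called genes of the list.

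Replication licensing and nucleotide supply held larger changes on the same arrays. The shares called in either direction in the E2F, G1 cyclin and histone lists below were near the 13.8% of all genes tested. Of all genes, 7.02% were called higher and 6.76% lower. Of 20 tested licensing and nucleotide supply genes 6 fell and 1 rose, a larger share than the 13.8% of all genes. Their median change was -0.21, with 15 below 0. The helicase genes Mcm2 and Mcm3 fell by 0.92 and 0.83, whereas Rrm2, the S-phase subunit of ribonucleotide reductase, rose by 2.15 (log2). Of 18 genes of the E2F, retinoblastoma and DREAM families, E2f8, a repressive E2F, rose by 1.67, and Tfdp1 (-0.42) and Rbl1 (-0.49) fell. Of 13 tested G1 cyclins, their kinases and inhibitors, Ccnd2 (-1.65) and Cdk6 (-1.12) fell and none rose. Histone genes of the replication-dependent clusters, which are transcribed in S phase, gave 2 rises and 1 fall among 16 tested. Their median change was 0.21, with 12 of 16 above 0, in the opposite direction to the S-phase members (-0.24). Array medians of these histone genes were -0.28 to 0.04 in wild type and 0.05 to 0.10 in knockout cells. H4c12 (0.59) and H4c14 (0.63) rose and H1f2 (-0.67) fell; these genes have near-identical copies that the probes may share, so which copy changed is uncertain.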

How the data were processed

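RNA of 8 hepatocyte samples was labelled with biotin and hybridised to arrays. The authors deposited 1 table of log2 values, made with RMA through the oligo package, per the submitters' processing notes. RMA forces the arrays to a common distribution and compresses changes of dim genes. The values were used as given (41345 rows). Arrays have no read depth, and 4 arrays per group limit the precision. Rows with 1 symbol in the platform annotation (23521) were kept, and per gene the row of highest mean over 8 arrays. Genes with a mean above the 40th percentile of all rows (3.32) were tested with limma 3.58.1 in R 4.3.3 (lmFit, eBayes without trend), Benjamini-Hochberg adjusted over 15380 genes, threshold 0.05. Tests are two-sided and changes are knockout minus wild type. Other calculations used Python 3.11.15. In simulated data with the spreads of these 15380 genes, 44%, 88% and 100% of changes of 0.5, 1 and 2 (log2) were called. Far fewer genes were changed there than were called here, so these shares do not give the sensitivity in these data. The members and lists were chosen with earlier results of these data known. Named in full were called members and, in each phase, the 4 of highest mean and the 4 of smallest p not called; from each other list, up to 3 called genes of smallest p (2 for cell types). Other members are named by role. Alternatives were other filters, row rules, normalizations, variance models, thresholds, a replicate block and leaving out each array.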

Additional observations from a re-analysis of the deposited data

Results flagged for a closer look

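In 114 groups of 4 arrays screened (54 members in each genotype, and the medians of the members and of each phase), 14 had a highest or lowest array whose gap to the next, as a share of the group's range, was above Dixon's 95% critical value. Chance flags about 1 in 20 groups, and rows with identical values on several arrays reach high shares with small gaps.

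Knockout replicate 4 was the lowest array for Plk4 (3.85 against 4.73 for the next, share 0.986), Prim1 (5.22 against 5.80, share 0.922), Gins2 (4.41 against 4.81, share 0.876) and Chek1 (3.99 against 4.51, share 0.850). It was the highest for Aurkb (4.51 against 4.28, share 0.990) and Cenpe (3.56 against 3.30, share 0.884). Knockout replicate 1 was the lowest for Plk1 (3.95 against 4.24, share 0.862) and Bub1b (3.65 against 3.81, share 1.00) and the highest for Bub1 (2.09 against 1.82, share 0.885). Knockout replicate 2 was the highest for Cdc20 (3.68 against 3.45, share 0.904).

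In wild type, replicate 3 was the lowest for Ndc80 (2.38 against 2.70, share 0.855) and Nuf2 (2.02 against 2.61, share 0.940). Replicate 4 was the lowest for Gins2 (4.97 against 5.06, share 0.857) and the highest for Kif23 (2.27 against 2.10, share 1.00).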

How the results depend on the processing

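No member was called higher under any alternative. The count of members called lower was 3; it was 5 at a threshold of 0.10 (4 S-phase, 1 G2/M) and 0 at 0.01, and 1 to 4 when 1 array was left out, with 1 (Pole) without wild type replicate 1 or 3 or knockout replicate 2. The same holds for the counts of S-phase members and of members above the receptor bound, 1 to 4 each; the latter was 1 with the 99th percentile as the bound, and at thresholds 0.01 and 0.10 it was 0 and 5. G2/M members called stayed at 0 except for 1 (Ccnb2) with the 60th percentile filter, under which Pole and Gins1 were not tested, and 1 at a threshold of 0.10. Over all genes 1071 were called at 0.01.

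The median change of all members was -0.0305 with no filter or the 20th percentile and -0.17 with the 60th, and -0.14 to -0.0615 leaving out arrays; that of G2/M members was 0.0434 with either weaker filter and -0.0923 to 0.0131 leaving out arrays. Other mitotic genes called were 5; they were 3 with no filter, the 20th percentile, cyclic loess, median centring or a threshold of 0.01, 8 at 0.10 and 3 to 7 leaving out arrays. Other S-phase genes called were 6; they were 3 with no filter, the 20th percentile or median centring, 1 at 0.01, 11 at 0.10 and 2 to 9 leaving out arrays. The cause was not tested, except that fewer or more genes entered under the filters.

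Leaving out 1 array moved the change by over 1.5 times or turned it for 28 of the 39 tested members, Pole, Pola1 and Gins1 not among them, and turned the sign for 13 (Aurkb, Bub1b, Cdca8, Dnmt1, Ect2, Fen1, Kif20b, Nusap1, Orc6, Plk1, Plk4, Pold1 and Prc1). Of these, 4 have every array's value in the report. Array weights gave 0.0168 for Dnmt1 and 0.0178 for Plk4. Leaving out arrays gave -0.0839 to 0.0621 for Dnmt1 (above 0 without wild type replicate 3 or knockout replicate 4), -0.0621 to 0.0086 for Orc6 (above 0 without wild type replicate 2 or knockout replicate 2), -0.0645 to 0.0193 for Pold1 and -0.2232 to 0.0739 for Plk4 (both above 0 only without knockout replicate 4).

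The labels do not say whether arrays of the same replicate number share a source, and this is not known here. Deviations of same-numbered arrays correlated at 0.0613, 0.0196, 0.263 and 0.207. Of the knockout arrays only replicates 3 and 4 correlated best with their own number. With the replicate number as a block, 2215 genes, 4 members (Ezh2 added) and 10 other S-phase genes were called.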
